A study of Mus musculus with 4 samples.

Results

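Dense narrow H4K16ac islands of mouse embryonic stem cells (ESC) that still met an island in neural progenitor cells (NPC) were followed on chromosomes 1 to 19. An island is a run of neighbouring windows enriched for the mark, and its density is its read count per kb of called width. An ESC island was taken when it was at most 2000 bp wide, held at least 120 and fewer than 200 reads per kb, and shared at least 1 base with an NPC island. The rule found 597 such islands among the 39508 ESC islands of these chromosomes and the 40570 in the whole ESC list. They met 595 of the 48278 NPC islands, because 2 NPC islands each met 2 of them and none of the 597 met more than 1 NPC island. The members were thus chosen by their ESC width, their ESC density and the presence of an NPC call, and they are named the kept islands here.

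NPC were 46c cells carrying Sox1-GFP, taken 5 days into differentiation with NB27 and Neuro2 supplements and sorted for GFP. ESC were the same 46c line, undifferentiated. GFP is driven by Sox1, an early neural gene, so the sort takes cells in which that gene is on, and both cell types descend from 1 line. Each cell type had 1 H4K16ac library from MNase-digested chromatin, made with the same antibody lot, and 1 input library that was not analysed here. No value below therefore has a replicate check, and no test was possible. Neither gene markers of the cell types nor genes near the islands were analysed here, so regions are given by position on mm9.

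Acetylation of lysine 16 in the tail of histone H4 is laid down mainly by the acetyltransferase MOF (KAT8). It weakens contacts between neighbouring nucleosomes in purified chromatin fibres and is found at active genes and enhancers. A short island can lie on a single regulatory element, whereas a broad one can span a whole gene.

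The kept islands were a small part of their kind. Of the 6576 ESC islands with this width and density, 9.08% (exact Clopper-Pearson 95% interval 8.39% to 9.80%) met an NPC island. Of all ESC islands on chromosomes 1 to 19, 40.8% did. NPC islands covered 12.4% of these chromosomes, so the 9.08% lies below the share of bases covered. ESC islands within the same 2000 bp limit met an NPC island in 20.2% of cases below 120 reads per kb and in 28.4% at 200 or more. ESC islands of the same density but wider than 2000 bp did so in 41.2%. Widths within the limit were not matched. Overlapped narrow islands below 120 reads per kb had a median width of 1600 bp, against 1400 bp for the kept islands. The share met was higher in wider islands, as given below, so these shares do not separate density from width. The overlap with NPC is part of the rule and is given as a description. The kept islands held 126437 ESC reads (exact Poisson interval 125741 to 127136), 0.705% of ESC island reads. The NPC islands they met held 212839 reads (211936 to 213745), 0.873% of NPC island reads. These 595 NPC islands covered 2676 kb, against 845 kb for the kept ESC islands, and 83.3% of the ESC bases lay within them. The median NPC island met held 162 reads and the median kept ESC island 214 reads, for which counting error alone is 7.86% and 6.84%. All intervals cover counting error or treat islands as independent draws, and sequenced reads may repeat a molecule, since they carry no molecular identifiers.

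By the rule, ESC widths ran from 400 to 2000 bp with a median of 1400 bp, and ESC densities from 120 to 199 reads per kb with a median of 145. At the lower limit, the 3 kept islands nearest inside had 120 reads per kb each, and the 3 overlapped islands nearest outside had 119.5, 119.4 and 119.4. At the upper limit, the nearest inside had 199, 199 and 198 reads per kb, and the nearest outside 200.6, 201 and 201.5. At the width limit, 103 of 464 dense islands of 2000 bp were kept (22.2%), and 90 of 366 of 2200 bp (24.6%). The limits thus cut through continuous ranges of density and width.

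The share kept was higher in the wider of these ESC islands and did not follow their density in one direction. It was 5.54% for islands of 400 to 800 bp, 5.66% for 1000 to 1200 bp, 11.6% for 1400 to 1600 bp and 19.3% for 1800 to 2000 bp (exact interval 17.0% to 21.9%). Across density it was 10.8% at 120 to 130 reads per kb, 9.34% at 130 to 140, 9.32% at 140 to 160, 6.76% (5.54% to 8.15%) at 160 to 180 and 9.76% at 180 to 200. The interval at 160 to 180 lies below that at 120 to 130, 9.18% to 12.7%. A wider island has more bases with which to meet another, and how far this sets the trend was not tested.

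With no read minimum, about as many kept islands met an NPC island within the 2000 bp limit as met a wider one. The NPC islands met had a median width of 2000 bp (order-statistic interval 1800 to 2200 bp), with quartiles of 1200 and 4800 bp and a range of 400 to 51400 bp. All NPC islands on these chromosomes had a median of 4200 bp. Since a wide island is more easily met, the fitting yardstick is the NPC island that holds the middle base of all NPC island bases, which was 9200 bp wide. NPC islands met by ESC islands of at most 2000 bp below 120 reads per kb had a median of 3200 bp (2800 to 3600 bp, 1217 ESC islands). Those met by ESC islands of the same density but wider than 2000 bp had a median of 2400 bp (2400 to 2600 bp, 1502 ESC islands).

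Sorted by NPC width, 311 kept islands (52.1%, 48.0% to 56.2%) met a narrow NPC island of at most 2000 bp, 193 (32.3%) an intermediate one, and 93 (15.6%, 12.8% to 18.7%) a broad one of at least 8000 bp. Over all 16113 overlapped ESC islands, 14.7% met a narrow and 39.7% a broad NPC island. Narrow ESC islands below 120 reads per kb met narrow NPC islands in 36.5% (33.8% to 39.3%) and broad ones in 21.0% (18.8% to 23.4%). With a minimum of 150 reads in islands of both lists, the median NPC width was 3800 bp (3400 to 4600 bp) and the broad share 25.8%, over 233 kept islands. That minimum removes most narrow NPC islands by construction. The narrow ones met had a median of 119 reads and an upper quartile of 138, and the broad ones at least 522. The shift in width is therefore not read as a finding. Without that minimum, the intervals of the narrow share did not overlap between the kept islands and the narrow ones below 120 reads per kb. Among the kept islands, 349 (58.5%) met an NPC island wider than themselves, against 48.6% of all overlapped ESC islands. For narrow ESC islands below 120 reads per kb, not matched in width, it was 72.5% (69.9% to 74.97%). Of the kept islands, 75 met an NPC island of equal width and 173 met a narrower one. NPC width had almost no rank relation to ESC width among them (Spearman rho -0.04 over the 597 pairs, as a description). By ESC width, the median NPC width was 2500 bp at 400 to 800 bp and 2400 bp at 1000 to 1200 bp. It was 1800 bp both at 1400 to 1600 bp and at 1800 to 2000 bp. The share with a narrow NPC island was 44.2%, 45.2%, 53.8% and 59.2% in that order, and with a broad one 21.2%, 16.9%, 15.6% and 11.7%.

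**Figure D1:**
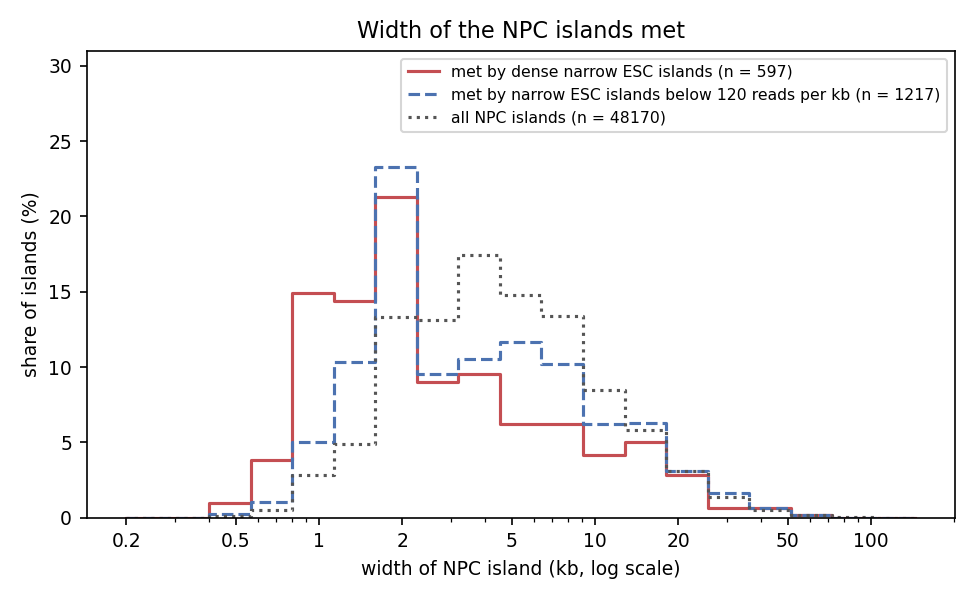
Width of NPC islands in kb on a log axis (x) against the share of islands in each width step (y), for NPC islands met by the 597 kept dense narrow ESC islands (solid), by 1217 narrow ESC islands below 120 reads per kb (dashed), and for all 48170 NPC islands of chromosomes 1 to 19 (dotted). The solid line lies above the others at 1.4 kb and less, and its median is 2000 bp against 3200 bp for the dashed line and 4200 bp for the dotted one.

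Kept islands of 140 or more ESC reads per kb met narrow NPC islands more often, and broad ones less often, than those below 140. Between the steps at 120 to 130 and 130 to 140 the order was the reverse. The median ESC width was 1400 bp in each step below 160 reads per kb and 1600 bp in those above. These steps therefore do not separate ESC density from ESC width. The share that met a broad NPC island was 19% at 120 to 130 ESC reads per kb, 26.4% at 130 to 140, 14.9% at 140 to 160, 9.90% at 160 to 180 and 1.47% at 180 to 200, where it was 1 of 68 islands. The share that met a narrow NPC island was 43.1%, 35.5%, 59.1%, 59.4% and 67.6% over the same steps. The median NPC density was 79.3, 78.1, 82.5, 85 and 94.1 reads per kb in that order. Within narrow NPC islands it was 96.5 at 120 to 140, 94.5 at 140 to 160, 97.8 at 160 to 180 and 107 (97.1 to 119) at 180 to 200. This last interval overlaps those of the other steps. Within intermediate NPC islands the medians were 70.6, 70.4, 66.1 and 70. ESC density and NPC density were only weakly related over the 597 pairs (Spearman rho 0.14, Pearson r 0.17), which share their libraries and are not independent samples.

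Most NPC islands met were of ordinary NPC density. Their median was 81.7 reads per kb (80.5 to 83.5), with quartiles of 70.8 and 100 and a range of 51.0 to 310 reads per kb, against a median of 76.6 over all NPC islands. Divided by island reads, that is 3.35 reads per kb for each 1000000 island reads in those met and 3.14 in all. At least 120 reads per kb were held by the NPC islands of 63 kept islands (10.6%, 8.20% to 13.3%), compared with 2.38% over all overlapped ESC islands. Narrow ESC islands below 120 reads per kb met such an NPC island in 2.96% (2.08% to 4.07%), and dense ESC islands wider than 2000 bp in 8.39% (7.04% to 9.91%). The last interval overlaps that of the kept islands.

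Density in NPC went with NPC width. Among the kept islands, the median NPC density was 97.0 reads per kb in narrow NPC islands (93.6 to 100), 69.7 in intermediate ones (68.1 to 71.3) and 78.5 in broad ones (74.9 to 81.2). Of those 63 dense NPC islands, 62 were narrow, 1 was intermediate and 0 were broad. Over the 597 pairs, NPC width and NPC density had a Spearman rho of -0.66, against -0.13 over all 48170 NPC islands. Both values describe 1 library, and density contains width in its denominator.

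Within NPC islands of like width, those met by kept islands were about as dense as those met by other ESC islands. In NPC islands of 400 to 800 bp the median was 124 reads per kb for the 70 met by kept islands (118 to 130), 123 for the 274 met by other ESC islands and 116 for the 514 met by none. At 1000 to 1200 bp the medians were 99.0, 99.2 and 96.0 reads per kb in the same order. At 1400 to 1600 bp they were 86.2, 88.6 and 84.4. At 1800 to 2000 bp they were 77.8, 81.5 and 77.8. Kept islands met 8.16% of all NPC islands of 400 to 800 bp and 1.87% of those of 1800 to 2000 bp, so the very short NPC islands weighed more among those they met. In the intermediate class, the NPC islands met by kept islands were less dense than the rest, at 69.7 (68.1 to 71.3) against 74.5 reads per kb for those met by other ESC islands and 72.5 for those met by none.

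**Figure D2:**
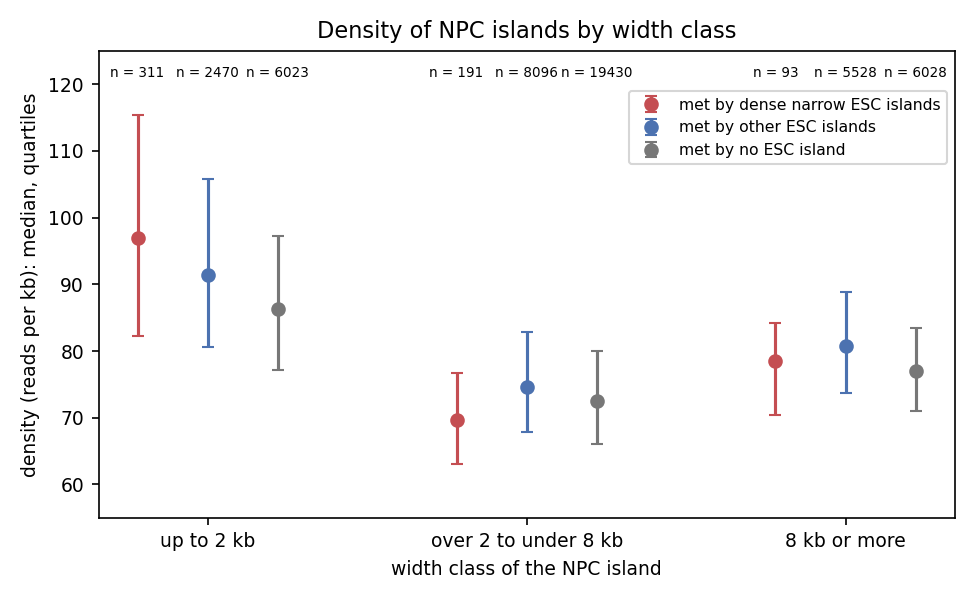
Density of NPC islands in reads per kb (y, which starts at 55) by width class of the NPC island (x), as medians with quartile bars, for NPC islands met by kept dense narrow ESC islands, by other ESC islands and by no ESC island. Narrow NPC islands met by kept islands have the highest median, 97.0 reads per kb, and intermediate ones the lowest, 69.7.

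Density was lower in NPC than in ESC for nearly all kept islands. Each ratio sets the density of the NPC island met over that of the ESC island, with both divided by the island reads of their list. Over the 597 islands the log2 of NPC over ESC had a median of -1.26 (-1.29 to -1.23) and an SD of 0.40. Of the 597, 454 (76.0%) were at -1 or below, against 15.2% of all overlapped ESC islands. The ESC density of each island was part of the rule, which selects high ESC values, so nothing is read from this count. ESC islands of the same density but wider than 2000 bp had nearly the same median, -1.24 (-1.26 to -1.22), and narrow ESC islands below 120 reads per kb had -0.68 (-0.71 to -0.66).

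The scaling decided how many values lay above 0. Scaled to island reads, 4 kept islands (0.670%) had the higher density in NPC, against 1.65% of all overlapped ESC islands. Without scaling, 25 (4.19%) did, against 39.7%, and the median of the kept islands was -0.81. The scaling moves every log2 value down by 0.44. By NPC class, the scaled median was -1.10 with narrow, -1.47 with intermediate and -1.26 with broad NPC islands. All 4 scaled and all 25 unscaled values above 0 belonged to narrow NPC islands.

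**Figure D3:**
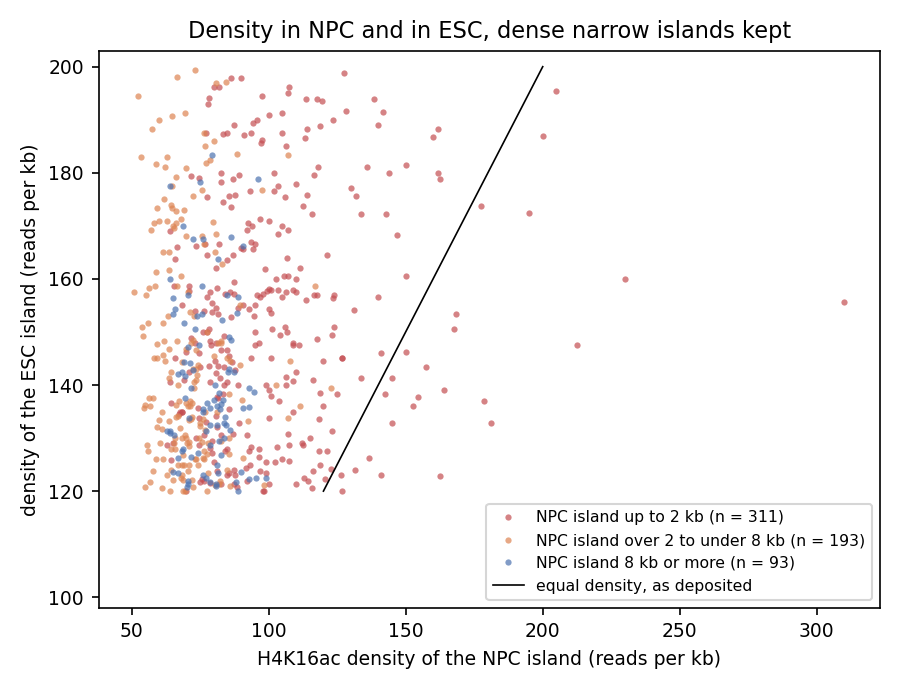
Density of the NPC island met (x, reads per kb) against density of the kept ESC island (y, reads per kb), 1 point for each of the 597 kept islands, coloured by the width class of the NPC island. The line marks equal density as deposited, and 25 points, all with narrow NPC islands, lie to its right.

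A small set was dense and narrow in both cell types. With the same width and density limits applied to NPC, 607 NPC islands qualified, of which 325 (53.5%) met an ESC island of any kind, compared with 34.6% of all NPC islands. Of the 607, 57 (9.39%) met a kept island, compared with 1.24% of all NPC islands. Kept islands met 3.53% of all NPC islands of at most 2000 bp and 8.16% of those of 400 to 800 bp. How far the 9.39% goes with NPC width was not tested. In NPC islands of 400 to 800 bp, 58.6% of those met by kept islands held at least 120 reads per kb. For those met by other ESC islands it was 56.6%. These shares were 11.8% and 11.1% at 1000 to 1200 bp, 6.90% and 5.12% at 1400 to 1600 bp, and 6.56% and 2.21% at 1800 to 2000 bp. The 57 pairs made up 9.55% of the 597 kept islands, and 1.86% of all overlapped ESC islands met such an NPC island. Within narrow NPC islands, the share with at least 120 reads per kb was 19.4% at 120 to 140 ESC reads per kb, 16.8% at 140 to 160, 18.3% at 160 to 180 and 30.4% (17.7% to 45.8%) at 180 to 200. These intervals overlap.

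The densest NPC islands met were short ones with a single ESC island, and several were called at the same positions in both cell types. The densest NPC island, on chromosome 11 at 44276001 to 44276600, held 186 reads (310 reads per kb) at the end of an ESC island of 1400 bp from 44275201 with 218 reads (156 reads per kb). Its log2 was 0.55 (0.26 to 0.84), the only one of the 4 above 0 whose counting interval lay wholly above 0. That interval leaves out that ESC reads are averaged over 1400 bp and NPC reads over 600 bp. An ESC peak within those 600 bp would be averaged out, so a gain in NPC is not read from this value. On chromosome 18, the NPC island at 82390201 to 82391200 held 230 reads and the ESC island at 82390201 to 82391400 held 192, a log2 of 0.08 (-0.20 to 0.36). On chromosome 1, both lists called 5062001 to 5063200, with 255 NPC reads and 177 ESC reads, also a log2 of 0.08 (-0.20 to 0.37). On chromosome 10, both called 125340201 to 125342000, with 326 NPC and 239 ESC reads, a log2 of 0.00 (-0.24 to 0.25). These last 3 intervals include 0, so equal density per island read cannot be told apart from a small difference in them.

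Other members of this end had dense short NPC islands with slightly lower scaled values. On chromosome 14, both lists called 9995201 to 9996800, with 320 reads in NPC and 299 in ESC, a log2 of -0.35 (-0.58 to -0.11). On chromosome 12, an NPC island of 600 bp from 73861401 with 123 reads lay within an ESC island of 2000 bp from 73860201 with 391 reads, a log2 of -0.37 (-0.68 to -0.08). Both are above 0 without scaling, at 0.10 and 0.07, and for chromosome 12 the ESC reads are averaged over the whole 2000 bp. Whether such positions hold sequence present in several genomic copies was not tested.

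The narrowest NPC islands met were 400 bp wide and numbered 6, and their read counts were too low to tell NPC and ESC density apart. They held 78 reads on chromosome 1 from 21622801, 63 on chromosome 5 from 96613201, 61 on chromosome 7 from 73834801, 65 on chromosome 9 from 9238601, 67 on chromosome 10 from 57251801 and 58 on chromosome 19 from 3744001. The ESC islands they met were 400, 600, 1800, 1400, 1600 and 800 bp wide and held 69, 86, 245, 172, 241 and 113 reads in the same order. Their log2 values lay between -0.41 and -0.04, and all 6 intervals included 0. Where the ESC island was wider than 400 bp, its reads are averaged over that greater width. The last is tied in width with the others and was named after its values were seen. On chromosome 1 the 2 calls were identical in position.

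At the other end, the lowest ratios came from dense ESC islands that met sparse intermediate NPC islands. On chromosome 12, the NPC island at 26730001 to 26735000 held 261 reads (52.2 reads per kb), and its last 2000 bp were an ESC island of 389 reads (194 reads per kb), a log2 of -2.34 (-2.57 to -2.11). On chromosome 9, an NPC island of 3600 bp from 36466001 had 53.3 reads per kb and an ESC island of 2000 bp from 36465801 had 183, a log2 of -2.22. The other 3 lay on chromosome 11 from 74115401, chromosome 1 from 187027001 and chromosome 19 from 24907201, with log2 values of -2.15, -2.10 and -2.07. Their NPC islands were 3200 to 7200 bp wide with 51.0 to 60.1 reads per kb. The lists give no reads for the ESC stretch alone within an NPC island, so a local peak there would be averaged out.

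The 5 kept islands of highest ESC density met NPC islands of differing width and density. The 5 highest, 198 to 199 reads per kb, lay on chromosome 1 from 94369401, chromosome 3 from 96708201, chromosome 15 from 56778601, chromosome 2 from 157029401 and chromosome 17 from 24562801. Their NPC islands were 6200, 800, 2600, 1600 and 1200 bp wide, with 73.1, 128, 66.5, 86.2 and 90.00 reads per kb. Log2 values ran from -2.02 to -1.08. The island on chromosome 15 also had the most ESC reads, with 173 reads in its NPC island against 396 in ESC. The others ranked by ESC reads were those from 73860201 and 26733001 on chromosome 12, already described, and from 193644801 and 137209001 on chromosome 1. The NPC islands of the last pair had 97.5 and 119 reads per kb.

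Where the NPC island was broad, the width limits make the kept island a small piece of it (at most 2000 bp against at least 8000 bp). The widest, on chromosome 2 at 172695201 to 172746600, spanned 51.4 kb with 4167 reads and held an ESC island of 1000 bp from 172739401 with 136 reads. On chromosome 19, an NPC island of 43.2 kb began at 10762601, exactly where its ESC island of 1800 bp with 274 reads began. The next 3 were 41.6 kb on chromosome 6 from 72507401, 37.8 kb on chromosome 10 from 77094201 and 36.4 kb on chromosome 11 from 115285001. All 5 had 76.1 to 89.9 NPC reads per kb and log2 values of -1.32 to -0.90. NPC islands of at least 20000 bp were met by 22 kept islands in all.

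Position within the NPC island is described by class, since the distance between centres is bounded by the 2 widths. With narrow NPC islands, the centres of the 2 calls lay a median of 100 bp apart, which is within 1 window of 200 bp, and 241 of 311 (77.5%, 72.4% to 82.0%) lay within 200 bp. Narrow ESC islands below 120 reads per kb that met narrow NPC islands were alike in this, at 82.0% (78.1% to 85.4%) within 200 bp. Both edges were identical in 57 of the 311 kept islands (18.3%, 14.2% to 23.1%) and in 33.1% (28.7% to 37.7%) of the narrow islands below 120 reads per kb. Here the intervals did not overlap. The NPC call was the shorter one at the median, 1200 bp against 1600 bp for the kept islands of that class.

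In the wider classes most kept islands had their centre outside the middle 50% of the NPC width. Centres within it made up 34.2% with intermediate and 25.8% with broad NPC islands. No other ESC islands were compared in this. The median distance between centres was 1100 bp with intermediate and 5000 bp with broad NPC islands. Wider NPC islands leave more room for it, so its rise over the classes is not read as a finding. In the broad class the kept island filled a median of 8.82% of the NPC width, a share that the width limits keep small. In 26 of 93 it reached beyond the NPC edge. Over all 597, 288 (48.2%, 44.2% to 52.3%) lay wholly inside the NPC island, compared with 38.0% of all overlapped ESC islands. For narrow ESC islands below 120 reads per kb, not matched in width, it was 68.0% (65.3% to 70.7%). In 225 of the 597 the NPC island lay wholly inside the kept one, counting the 57 identical calls under both. In 141 neither contained the other.

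Most kept islands were the only ESC island in the NPC island they met. This held for 537 (89.9%, 87.3% to 92.2%), against 82.9% of all overlapped ESC islands and 85.4% of narrow ones below 120 reads per kb. It held for all 311 with a narrow NPC island, 171 of 193 with an intermediate and 55 of 93 with a broad one (59.1%, 48.5% to 69.2%). The NPC islands of the remaining 60 held 69 further ESC islands that are not in the set, with a median width of 6000 bp and a median density of 87.5 reads per kb. Of these 69, 65 (94.2%) were wider than 2000 bp, near the 92.1% among all ESC islands that shared their NPC island with another.

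Kept islands lay in neighbourhoods rich in islands of both cell types. The nearest NPC island other than the one met was a median of 11.8 kb away (9.8 to 13.2 kb). The 5979 ESC islands of the same width and density that met none had their nearest NPC island at a median of 52.8 kb (50.4 to 56.2 kb). The nearest other ESC island was 14 kb away (12.2 to 16.4 kb) for kept islands and 33.6 kb (32 to 35 kb) for those not kept. Among those not kept, 2279 (38.1%) had no NPC island within 100 kb and 119 (1.99%) had one within 1 kb. For narrow ESC islands below 120 reads per kb that were kept, the distances were shorter still, 7.2 kb to NPC and 10.2 kb to ESC islands.

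The difference reached well beyond the islands themselves. At 10 kb from the centre, 24.6% of positions lay in an NPC island around kept islands and 6.20% around those not kept. The NPC island met is counted in this, so part of the gap near the islands follows from how the groups were chosen. At 100 kb the values were 22.2% and 9.07%, and at 200 kb 21.1% and 8.89%, on either side of the 12.4% of chromosomes 1 to 19 covered by NPC islands. Around narrow ESC islands below 120 reads per kb that were kept, they were 24.7% at 100 kb and 21.0% at 200 kb. These surroundings are thus not particular to the dense kept islands. ESC islands covered 13.3% of positions at 100 kb around kept islands and 6.61% around those not kept, against 7.68% of these chromosomes. Around narrow ESC islands below 120 reads per kb that were kept, they covered 15.2%. Gene density and sequence composition were not analysed here, and their part in this was not tested.

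**Figure D4:**
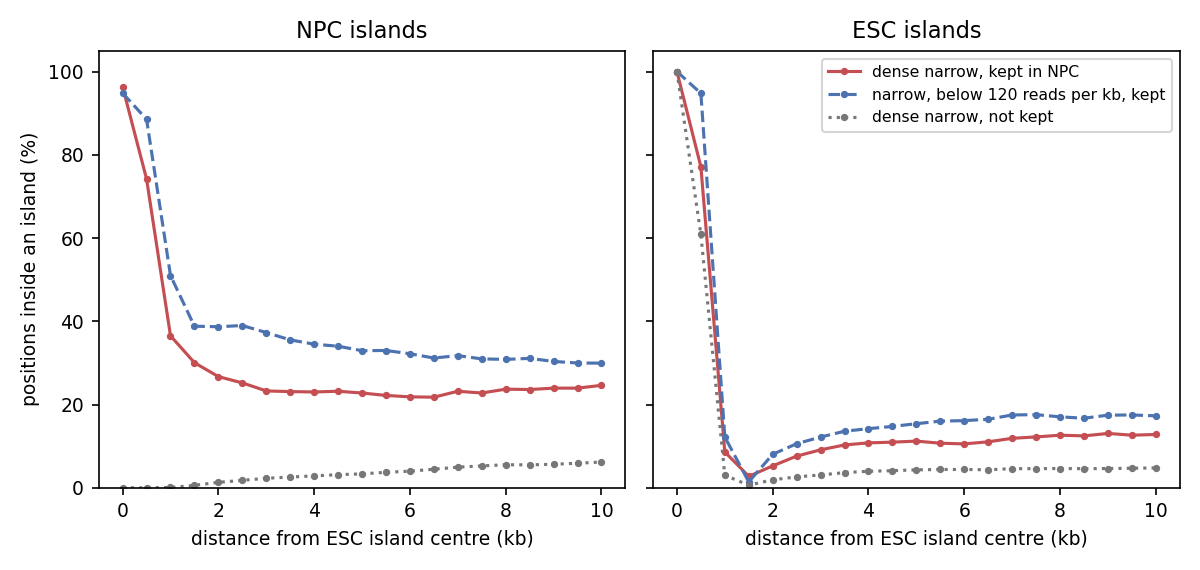
Share of positions inside an NPC island (left) or an ESC island (right), in percent (y), against distance from the ESC island centre in kb, both sides pooled (x), for kept dense narrow ESC islands, kept narrow ESC islands below 120 reads per kb, and dense narrow ESC islands not kept. At 0, and in part close to it, the values follow from how the groups were chosen. At 10 kb the NPC values are 24.6%, 30.0% and 6.20%.

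The share kept fell with isolation from other ESC islands. It was 16.04% (14.2% to 18.0%) with another ESC island within 10 kb, 8.01% (7.17% to 8.92%) with the nearest over 10 to 100 kb away, and 3.56% (2.60% to 4.75%) with none within 100 kb. The NPC islands met followed the same order, with medians of 2700, 1800 and 1600 bp. Their median densities were 82.6, 80.7 and 82.6 reads per kb. The most isolated 44 kept islands met narrow NPC islands in 68.2% and broad ones in 6.82%.

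Kept islands were found on all 19 autosomes. The median distance to the nearest other kept island was 965 kb, with another within 100 kb for 87 (14.6%) and within 1000 kb for 304 (50.9%). Chromosome 2 held the most, 53, and chromosome 15 the fewest, 15. The share of dense narrow ESC islands that was kept ran from 6.02% on chromosome 15 (3.41% to 9.74%) to 18.1% on chromosome 19 (11.8% to 25.9%), where it was 23 of 127. Chromosomes 11, 17 and 8 followed with 13.1%, 12.1% and 11.9%. The intervals of chromosomes 19 and 11 lay wholly above 9.08%, the share over all, among 19 compared, and no interval lay wholly below it. Across the 19 chromosomes the share kept had a Spearman rho of 0.39 with the share of the chromosome covered by NPC islands, as a description.

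**Figure D5:**
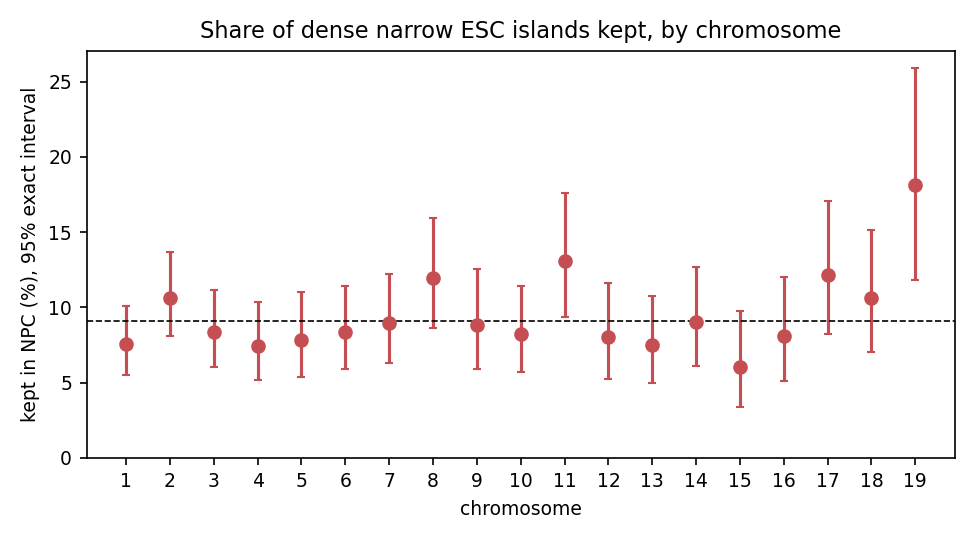
Share of dense narrow ESC islands kept in NPC, in percent with exact 95% intervals (y), for chromosomes 1 to 19 (x). The dashed line is the share over all 19, 9.08%, and chromosome 19 has the highest value, 18.1%.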

How the data were processed

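The build was mm9 and the island caller SICER 1.1, per the submitters' processing notes, which also name bedtools 2.10.1, SAMtools 0.1.7, Bowtie 0.12.7 and CASAVA 1.8.2. The names of the deposited lists give 200 bp windows, a 600 bp gap and an FDR of 0.01. The whole number that the authors deposited for each island was taken as its count of H4K16ac reads, scaled neither to depth nor to input. Duplicate removal and the use of input are not given in the sources used here. The lists hold 24386370 NPC and 17935144 ESC reads inside islands, so library depth is unknown.

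Widths were end minus start plus 1, coordinates count from 1, and log2 ratios were scaled to island reads. The overlap code found all 500 islands planted in a simulated list, with 0 false overlaps, and matched bedtools 2.31.1 on the real lists. Python 3.11.15, numpy 2.4.6, pandas 2.3.3, scipy 1.17.1 and matplotlib 3.10.9 were used. With 1 library per cell type no p-value was computed. The members, classes and comparisons were chosen with earlier results of these data known. Islands were named as the 5 highest by ESC density, ESC reads, NPC width, NPC density and log2, and the 5 lowest by log2 and NPC width. Neither genes nor sequences are given, because no mm9 genome was used here. Alternatives are described in the closing section.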

Additional observations from a re-analysis of the deposited data

Results flagged for a closer look

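Chromosome X was outside the rule. Its ESC list held 595 islands with the same width and density, of which 8 met an NPC island (1.34%, exact interval 0.582% to 2.63%), against 9.08% on chromosomes 1 to 19. The NPC list held 107 islands on X in all. The 8 NPC-met islands had a median NPC width of 1200 bp, a median NPC density of 98.8 reads per kb and a median log2 of -1.23. No reason for the low share was tested.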

How the results depend on the processing

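No paired analysis was possible because each cell type has 1 library, so no library could be left out either. Of 84 values recomputed under planned settings, 52 lay inside the main interval (for the count of kept islands, within 1.5 times) and 32 moved. No median log2, the only quantity that can change sign, did so. For the shifts the cause was not tested, except that tighter limits remove islands by construction, and a read minimum removes mostly short ones. A minimum of 150 reads in both lists moved every quantity: 233 kept islands (5.85% of their kind), median NPC width 3800 bp, NPC density 77.3 reads per kb, log2 -1.32, 56.7% wholly inside, 25.8% broad and 84.5% alone in the NPC island. An upper density limit of 150 gave 346 kept islands, 9.90%, 2500 bp, 80.2 reads per kb, -1.19, 56.9% inside and 19.9% broad. Without an upper limit the share kept was 9.996%, NPC density 83.6 and log2 -1.30. A lower limit of 110 gave 10.2%, -1.17 and 53.4% inside, and one of 130 gave a log2 of -1.31. Width limits of 1600 and 2400 bp gave shares of 7.21% and 11.0%, with 58.4% and 41.3% inside. Merging gaps up to 2000 bp gave 8.23%, 80.4 reads per kb, -1.30 and 22.6% broad. The median log2 was -0.81 unscaled and -0.85 when scaled by reads in overlapping islands. Counts of about 60 to 200 reads per island limit the reading of single ratios, and unknown library depth limits that of ESC islands without an NPC call.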
